A study of Mus musculus with 20 samples.

Results

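Transcripts of the hypoxia-inducible factor (HIF) pathway were followed on mouse oligonucleotide arrays: the factor subunits Hif1a and Epas1, their negative regulator Vhl, and the targets Vegfa, Adm, Slc2a1, Pfkfb3, Bnip3 and Ndrg1. The 9 genes were chosen by symbol, and every probe set (the group of oligonucleotides that reads out 1 transcript) which the platform annotation assigns to one of them was taken. All 9 were on the array, with 12 of its 12422 probe sets outside controls, of a total of 8251 named genes. Vegfa, Adm, Slc2a1, Bnip3, Epas1 and Vhl each had 1 probe set, and Pfkfb3, Ndrg1 and Hif1a had 2.

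HIF is a transcription factor made of an oxygen-regulated alpha subunit, HIF-1α (gene Hif1a) or HIF-2α (gene Epas1), and a constant beta subunit. With oxygen present, prolyl hydroxylases mark the alpha subunit, and the von Hippel-Lindau protein (gene Vhl) directs it to degradation, so the subunit is controlled mainly as a protein and its transcript need not move. At low oxygen the dimer binds the core letters ACGTG or GCGTG near target genes, which raise glucose uptake and glycolysis, blood vessel growth and mitochondrial turnover.

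The study measured 20 arrays in 2 data sets. In the first, 8 arrays held subcutaneous adipose tissue of mice aged 12 weeks, in 4 groups of 2: Glucose with intermittent hypoxia, Glucose without hypoxia, Con with intermittent hypoxia and Con without hypoxia. During exposure the oxygen level was lowered to 5% within 30 seconds, from 20.9%, and restored within 30 seconds, for 16 hours a day on 5 days, while mice of the non-hypoxia groups received room air on an intermittent schedule. The labels name the strains C57BL-6J and C57BL-6J-Lep for all 8 arrays together, so the strain of an array, and the meaning of the words Con and Glucose, are not known here. In the second set, brain, heart, lung and skeletal muscle of C57BL-6J mice aged 20 weeks were measured under hypoxia, sleep fragmentation and control conditions, with 1 array for each of the 12 combinations, and the hypoxia regime of this panel is not stated. Whether arrays of a group came from separate animals is not stated either, so an adipose p-value measures the spread between arrays only. In the panel, the spread behind a p-value also holds differences between tissues in their response to a condition, because each combination has 1 array. Whether the tissues of a condition came from separate animals is not known here.

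The labelled tissues were checked against marker genes. Summed intensities of the adipocyte markers were 32612 to 113540 on the adipose arrays, against 2164 to 18124 in the panel, although the data sets were scaled separately. Skeletal muscle markers summed to 15740 to 175390 on the adipose arrays, and to 51391 to 55853 on the skeletal muscle arrays themselves, so the adipose arrays also carried muscle transcripts. The brain and heart markers were each highest in their own tissue, as were the lung markers (10455 to 24543 in lung) apart from a sum of 10815 on the brain control array. The brain hypoxia array stood apart, with a median intensity of 1480 against 349 to 413 on the other 11 panel arrays, and panel levels are therefore given after quantile normalization. In all of these bulk samples, fewer cells of a type and less RNA per cell cannot be told apart.

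Promoter windows of 250 bases before the transcript start were taken from RefSeq (GRCm38.p6) for 7 of the 9 genes, and those of Epas1 and Ndrg1 were not used here. The windows of 4 targets at their annotated gene starts are shown because the response of these targets to hypoxia is the question, with every match to the core letters ACGTG or GCGTG, on either strand, in capitals.
Bnip3 (chr7:138909507-138909756, minus strand): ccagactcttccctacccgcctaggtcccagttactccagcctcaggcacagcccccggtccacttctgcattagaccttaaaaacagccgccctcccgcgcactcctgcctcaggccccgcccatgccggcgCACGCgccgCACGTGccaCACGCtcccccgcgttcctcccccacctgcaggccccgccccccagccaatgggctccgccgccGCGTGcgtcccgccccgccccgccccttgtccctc
Slc2a1 (chr4:119108495-119108744, plus strand): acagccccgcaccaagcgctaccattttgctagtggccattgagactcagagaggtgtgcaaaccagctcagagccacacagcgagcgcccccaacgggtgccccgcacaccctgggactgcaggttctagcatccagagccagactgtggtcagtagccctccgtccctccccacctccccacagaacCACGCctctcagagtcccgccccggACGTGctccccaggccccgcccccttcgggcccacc
Adm (chr7:110627407-110627656, plus strand): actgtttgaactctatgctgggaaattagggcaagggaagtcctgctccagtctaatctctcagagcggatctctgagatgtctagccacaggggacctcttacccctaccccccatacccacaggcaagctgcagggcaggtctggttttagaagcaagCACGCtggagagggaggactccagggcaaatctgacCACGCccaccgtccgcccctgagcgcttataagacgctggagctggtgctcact
Vegfa (chr17:46032378-46032627, minus strand): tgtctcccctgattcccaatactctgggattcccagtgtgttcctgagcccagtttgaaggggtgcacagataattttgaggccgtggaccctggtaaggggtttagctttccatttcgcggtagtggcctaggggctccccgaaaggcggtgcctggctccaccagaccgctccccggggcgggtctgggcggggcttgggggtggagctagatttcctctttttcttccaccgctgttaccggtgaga
The Bnip3 window held 5 matches, beginning 117, 108, 107, 99 and 35 bases before the start, of which the neighbours at 108 and 107 are the palindrome CACGTG read on both strands. The Slc2a1 window held 2, at 61 and 36 bases, and the Adm window held 2, at 90 and 54 bases. The Vegfa window at the gene start held 0 matches, while a second Vegfa window, at a transcript start further downstream, held 2. In all, 6 of the 7 genes had a match in at least 1 window, Vhl being the exception, against 41.5% of 27025 genes in the promoter table. Vegfa counted only through its second window, which lies inside the annotated gene. Hif1a and Pfkfb3 counted through windows that are not at the annotated gene start. Sequence outside the 250 bases was not searched. By window, 7 of the 9 member windows (77.8%) held a match, against 38.6% of 32851.

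The first question was whether 5 days of intermittent hypoxia changed these transcripts in adipose tissue. In neither the Glucose nor the Con groups did any of the 9 genes pass the test of the limma fit, and the largest differences were those of Slc2a1 in Glucose and Adm in Con. Of the 7453 tested probe sets 0% passed in either comparison, so the members' count equals that of the array as a whole. At an unadjusted p under 0.05 the members again gave 0 of 9, against 2.13% of all tested probe sets within Glucose and 2.92% within Con. Adipose values were taken to log2 with intensities under 97.7 raised to that value, which gives a floor of 6.61. Differences are log2 hypoxia minus non-hypoxia with the standard error of the limma fit and n = 2 arrays a group.

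**Figure D1:**
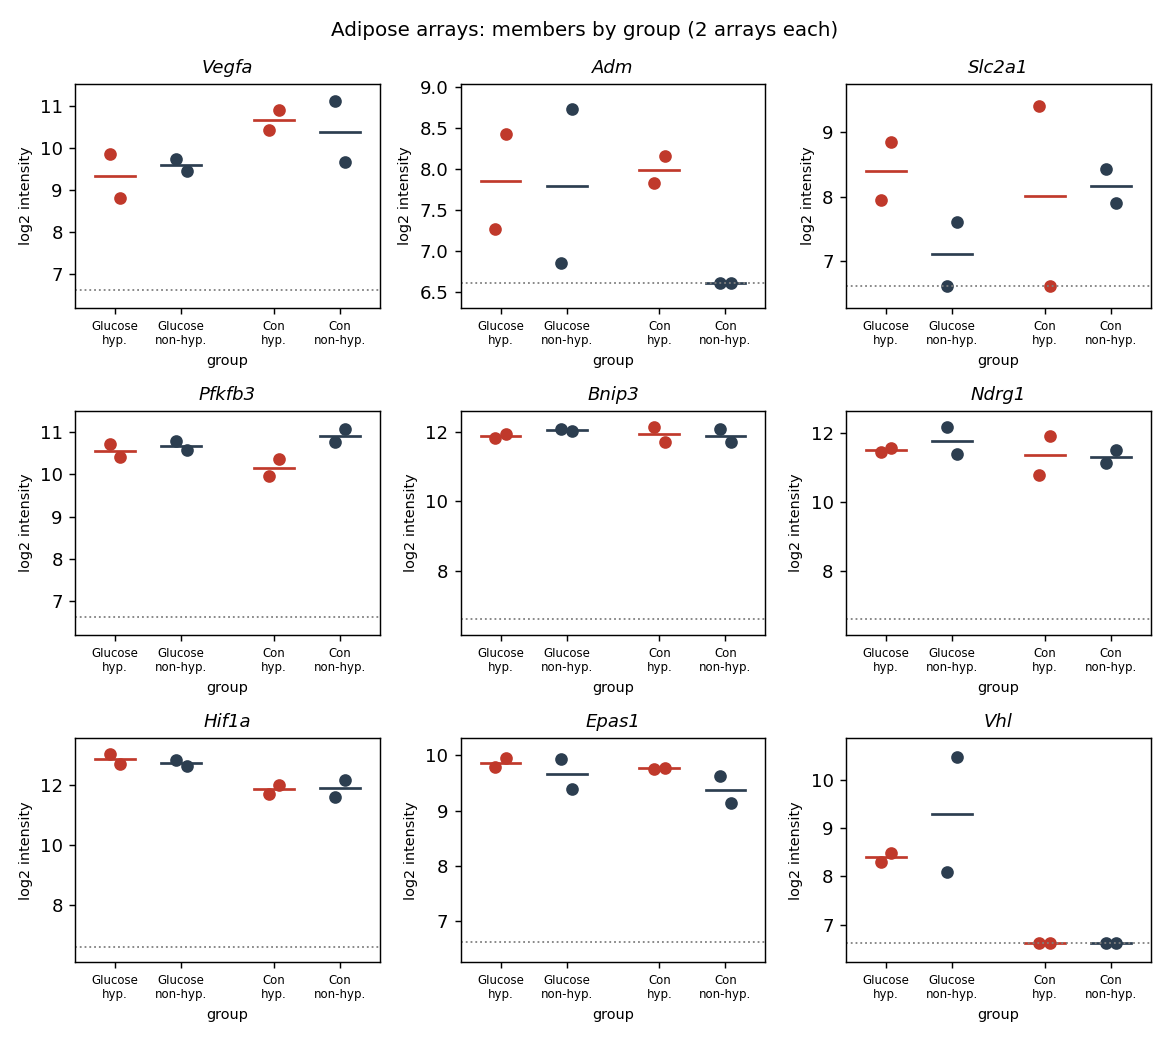
Log2 intensity (vertical axes) of the 9 genes on the 8 adipose arrays, in the groups Glucose with hypoxia, Glucose without, Con with hypoxia and Con without. Points are arrays, bars are group means and the dotted line is the floor of 6.61. All 4 Con arrays of Vhl lie on the floor, and the Glucose arrays of Hif1a lie above all Con arrays.

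Adm encodes adrenomedullin, a vasodilator peptide. Within Glucose its intensities were 155 and 345 on the hypoxia arrays, against 116 and 426 on the non-hypoxia arrays, and the groups overlapped (0.05 ± 0.65). Within Con they were 228 and 285 with hypoxia, against 92.7 and 93.4 without. There both hypoxia arrays were above both non-hypoxia arrays, which lay under the floor. The log2 difference was 1.38 ± 0.65, with an unadjusted p of 0.067 and an adjusted p of 1 in the limma fit, and it was 0.52 with a higher floor, at percentile 30 of the positive values. The hypoxia effect in Glucose minus that in Con was -1.33 for Adm, and it did not pass the test (adjusted p = 0.999, limma).

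Vegfa encodes vascular endothelial growth factor A, the main signal for vessel growth. Within Glucose it measured 927 and 452 on the hypoxia arrays, against 856 and 698 on the non-hypoxia arrays, with overlap. Within Con it measured 1387 and 1938 with hypoxia, against 2219 and 812 without. The 2 non-hypoxia arrays of Con lay on either side of the hypoxia arrays. The log2 differences were -0.26 ± 0.56 in Glucose and 0.29 ± 0.56 in Con. Averaged over both, the difference was 0.02, with a 95% interval of -0.92 to 0.95.

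Slc2a1 encodes the glucose transporter GLUT1. Within Glucose its intensities were 248 and 461 on the hypoxia arrays, against -48.5 and 195 on the non-hypoxia arrays. The groups did not overlap, but 1 non-hypoxia array was below 0 and so at the floor, and the difference of 1.29 ± 0.87 had an adjusted p of 1 (limma). Within Con they were 682 and -14.1 with hypoxia, against 344 and 240 without. There the 2 hypoxia arrays were the highest and the lowest of the 4, with a difference of -0.15 ± 0.87. The transcript was near the lower limit of the adipose arrays, and its 95% intervals, -0.73 to 3.31 in Glucose and -2.17 to 1.87 in Con, were the widest of the 9 genes.

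Pfkfb3 encodes the enzyme that makes fructose 2,6-bisphosphate, an activator of glycolysis. Within Glucose it measured 1676 and 1355 on the hypoxia arrays, against 1785 and 1519 on the non-hypoxia arrays, with overlap (-0.13 ± 0.34). Within Con it measured 996 and 1318 with hypoxia, against 1734 and 2172 without. In Con both hypoxia arrays were below both non-hypoxia arrays, opposite to the direction known for a HIF target at low oxygen. The log2 difference was -0.76 ± 0.34, with an unadjusted p of 0.056 and an adjusted p of 1 (limma). Muscle marker sums moved the same way in Con, at 61569 and 76238 with hypoxia against 91381 and 175390 without, and Pfkfb3 was highest in skeletal muscle in the panel. The part of muscle transcripts in the Pfkfb3 difference was not tested. The 3'/5' intensity ratio of the Actb controls, which reflects RNA quality, also separated these arrays, at 1.70 and 1.37 in Con with hypoxia against 0.788 and 0.942 in Con without. In Glucose the Actb ratio overlapped, at 0.810 and 0.775 with hypoxia against 0.756 and 1.27 without. The same ratio of the Gapdh controls overlapped in Con, at 1.02 and 0.915 with hypoxia against 0.865 and 1.01 without. The Actb ratio bears on every hypoxia comparison within Con, and its part was not tested. Brown adipocyte marker sums differed widely between the arrays of each Con group, at 85383 and 3832 with hypoxia and at 65493 and 10807 without. Their part was not tested either. In Glucose the highest Pfkfb3 intensity, 1785, came from the array with the lowest muscle sum, 15740. A second Pfkfb3 probe set lay under the floor on all 8 adipose arrays and was not tested.

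Bnip3 encodes a mitochondrial protein that promotes mitophagy, and Ndrg1 a stress-responsive growth arrest protein. Bnip3 varied little over the adipose arrays. It measured 3629 and 3923 in Glucose with hypoxia, against 4318 and 4173 in Glucose without, and the hypoxia arrays were the lower ones (-0.17 ± 0.33). In Con it measured 4468 and 3362 with hypoxia, against 4288 and 3351 without, with overlap (0.03 ± 0.33). The average effect on Bnip3 was -0.07, with a 95% interval of -0.61 to 0.47, which leaves out a 2-fold change in either direction. Ndrg1 ranged from 1790 to 4642, and its groups overlapped in both settings, with differences of -0.27 ± 0.47 in Glucose and 0.04 ± 0.47 in Con. Its second probe set gave -0.35 and -0.05.

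The factor subunits were likewise close between exposures. Hif1a measured 8423 and 6604 in Glucose with hypoxia, against 7280 and 6270 in Glucose without, a difference of 0.14 ± 0.35. In Con it measured 3336 and 4079 with hypoxia, against 3125 and 4575 without, a difference of -0.04 ± 0.35. Both comparisons overlapped. Epas1 measured 886 and 989 in Glucose with hypoxia, against 976 and 670 in Glucose without (0.21 ± 0.35). In Con it measured 864 and 877 with hypoxia, against 790 and 559 without (0.39 ± 0.35), and here both hypoxia arrays were the higher ones. Vhl was at the floor on all 4 Con arrays. In Glucose it measured 317 and 358 with hypoxia, against 273 and 1423 without (-0.89 ± 0.68), and 1 non-hypoxia array accounted for that difference.

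Within Glucose, 1 of the 9 genes was higher without overlap under hypoxia (Slc2a1) and 1 was lower (Bnip3), against 24.5% of all tested probe sets whose groups did not overlap. Within Con, 2 were higher (Adm, Epas1) and 1 was lower (Pfkfb3), against 25.9%. The members' shares are near these backgrounds. No member had non-overlapping groups in both settings. Averaged over Glucose and Con, none of the 9 was called by limma, against 0% of all probe sets, and 0 had an unadjusted p under 0.05, against 1.48%. No member's 4 hypoxia arrays were all above or all below the 4 non-hypoxia arrays, against 0.443% of all probe sets. For 6 of the 9 genes the 95% interval of the average effect lay within a 2-fold change, the exceptions being Adm, Slc2a1 and Vhl. No member passed the test of a difference between the hypoxia effects in Glucose and Con, against 0% of all probe sets, and 0 had an unadjusted p under 0.05, against 3.3%.

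**Figure D2:**
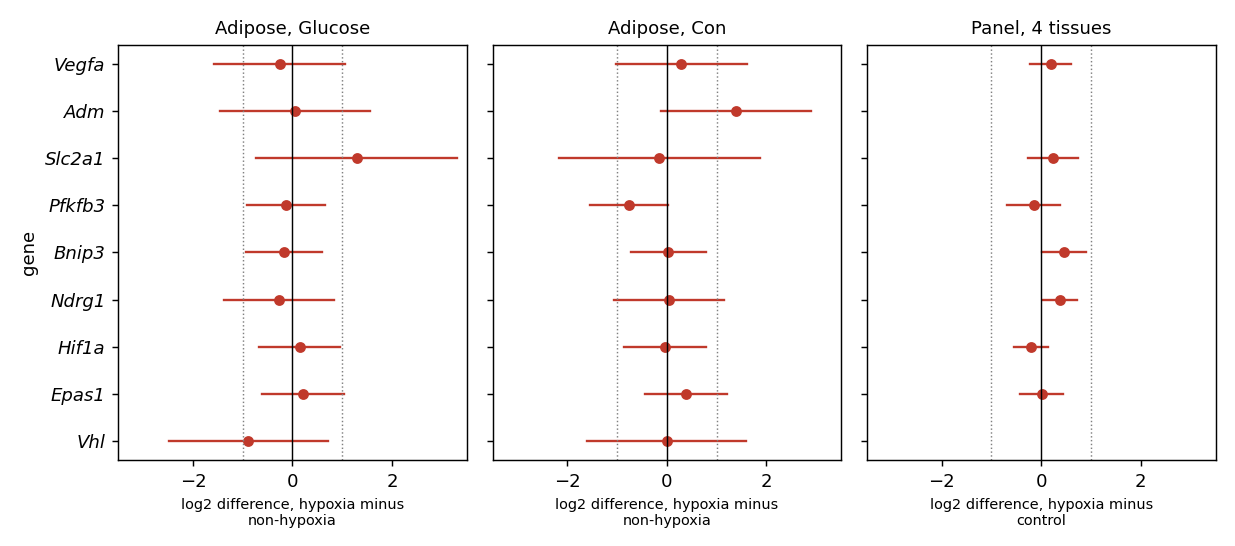
Log2 difference with its 95% interval (horizontal axis) for each gene, hypoxia minus non-hypoxia in Glucose adipose, the same in Con adipose, and hypoxia minus control over the 4 panel tissues. Dotted lines mark 2-fold. The adipose intervals are wide, and every panel interval lies within 2-fold. Adm and Vhl were too low for the panel fit.

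Other genes of the pathway, 74 in 5 lists, gave 47 with a tested probe set, and none passed the limma test in these adipose comparisons. At an unadjusted p under 0.05 they gave 0 within Glucose, 2 within Con, 0 on average and 2 for the difference between the hypoxia effects. Their median difference was 0.10 within Glucose and -0.12 within Con, against 0.00 and 0.06 over all tested probe sets. Among them, Bhlhe40 is a transcriptional repressor of the circadian clock, and it had the smallest unadjusted p in Con. In Glucose it measured 2157 and 1117 with hypoxia, against 742 and 1010 without, with both hypoxia arrays the higher ones (0.84 ± 0.43). In Con it measured 512 and 709 with hypoxia, against 1439 and 1951 without, with both hypoxia arrays the lower ones (-1.47 ± 0.43, adjusted p = 1, limma). Hk2, the hexokinase of muscle and fat, differed by 0.79 ± 0.42 in Glucose and by -1.05 ± 0.42 in Con. The hypoxia effect in Glucose minus that in Con was 2.32 ± 0.61 for Bhlhe40 and 1.84 ± 0.59 for Hk2, with unadjusted p of 0.0060 and 0.016 and an adjusted p of 0.999 for both in the limma fit, so neither passed the test. Skeletal muscle markers had the same signs. In Glucose 8 of 9 tested markers were higher with hypoxia (median 1.35), and in Con 9 of 9 were lower (median -1.38). The median of the difference between the effects was 3.36. The muscle sums overlapped in Glucose, at 55133 and 111010 with hypoxia against 15740 and 125450 without. Both the lowest and the highest of these sums came from non-hypoxia arrays, while the sums in Con did not overlap. Hk2 and Bhlhe40 were both higher in skeletal muscle in the panel, and the part of muscle transcripts in their differences was not tested. Egln1, a prolyl hydroxylase that marks HIF for VHL and is itself a target, differed by -0.60 ± 0.34 in Con.

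The second question was how the Glucose adipose arrays differed from the Con arrays. Hif1a was higher on all Glucose arrays and had an adjusted p just short of the threshold, and Vegfa had a lower mean in Glucose and did not pass the test. Vhl was read above the floor on the Glucose arrays only, and its test is not counted as a call because the gene entered the fit through those arrays. None of the other 8 genes passed, while 7.58% of all tested probe sets did, 4.04% higher and 3.54% lower.

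Hif1a was higher on each of the 4 Glucose arrays, at 8423, 6604, 7280 and 6270, than on each of the 4 Con arrays, at 3336, 4079, 3125 and 4575. The log2 difference was 0.93 ± 0.25 with an adjusted p of 0.070 in the limma fit, just short of the threshold of 0.05. The second Hif1a probe set gave 0.92 ± 0.26 (adjusted p = 0.079, limma), also with no overlap. Both probe sets are of a type whose oligonucleotides can match related sequences, so they are not independent readings. The adjusted p of Hif1a was 0.047 with a stricter filter on low probe sets and 0.037 with a variance trend, and 0.101 with the array letter as a replicate block.

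Vhl intensities were 317, 358, 273 and 1423 on the Glucose arrays, against -98.2, -70.0, -2.57 and -248 on the Con arrays. All 4 Con arrays lay at the floor and all 4 Glucose arrays above it. The log2 difference depended on where the floor was set, and was 2.23 ± 0.48 with the floor at percentile 20 of the positive values and 1.37 with the floor at percentile 30. Its adjusted p of 0.035 (limma) rests on the filter and on 4 Con values that the floor makes equal. The p was 0.164 with no filter and up to 0.110 when any of 6 single arrays was left out. Without the array at 1423, Vhl no longer entered the filtered fit, and the unfiltered fit then gave 1.63 (adjusted p = 0.00498, limma), a setting chosen after seeing the data. The array titles carry a code, s2 or s4, whose meaning is not given, and each code holds 1 array of each group. Vhl differed by 2.87 within the s2 arrays and by 1.59 within the s4 arrays (adjusted p = 0.150 and 0.107, limma), and Hif1a was above 0 within both (adjusted p = 0.327 and 0.237, limma).

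Vegfa measured 927, 452, 856 and 698 on the Glucose arrays, against 1387, 1938, 2219 and 812 on the Con arrays. A single Con array, at 812, lay within the Glucose range. The difference was -1.07 ± 0.40 with an adjusted p of 0.158 (limma), and it was -1.88 within the s2 arrays and -0.25 within the s4 arrays. The other 6 genes differed by -0.34 to 0.52 and their groups overlapped. Apart from Vhl, only Hif1a of the 9 genes was non-overlapping, against 19.8% of all tested probe sets. Vhl did not overlap either, but it is not counted, because it entered the fit through the Glucose arrays and its Con values lay at the floor.

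Cell type markers differed between the same arrays. The 7 measured B cell markers summed to 1124 to 2025 on the Glucose arrays, against 7517 to 11924 on the Con arrays, and Cd22 and Cr2 were at or below 0 on all 4 Glucose arrays. The 7 T cell markers summed to 101 to 577 in Glucose, against 2665 to 4343 in Con, and the 6 brown adipocyte markers to 1447 to 2867 in Glucose, against 3832 to 85383 in Con. The adipocyte sums overlapped, at 32612 to 89834 in Glucose and 53081 to 113540 in Con, as did the endothelial sums, at 12524 to 21417 in Glucose and 10841 to 19749 in Con. The part of these cell types in the Hif1a, Vhl and Vegfa differences was not tested.

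Of the other 47 tested pathway genes, 1 rose and 0 fell in Glucose, against 7.58% of all tested probe sets called. Lox, the collagen cross-linking enzyme lysyl oxidase, measured 3402, 5059, 4085 and 3347 on the Glucose arrays, against 680, 985, 922 and 919 on the Con arrays. Every Glucose array was above every Con array, and the difference was 2.17 ± 0.26 (adjusted p = 0.00299, limma). Hk2 (1.02 ± 0.30) and Hk1 (-1.06 ± 0.31), hexokinases that start glycolysis, and P4ha2 (0.92 ± 0.24), a collagen prolyl hydroxylase, had adjusted p of 0.090, 0.093 and 0.070 (limma). The median over the 47 was -0.08, against 0.04 over all tested probe sets.

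The third question was whether hypoxia moved the members in the tissue panel. No member passed the test, against 0% of all tested probe sets. The nearest were Bnip3 and Ndrg1, 2 of 7 tested members with an unadjusted p under 0.05, against 5.02% of all tested probe sets. Levels here are normalised log2 levels, and Adm and Vhl were too low for the fit. The 3'/5' ratio of the Actb controls was 0.0343 with hypoxia against 0.683 in the control brain, and 1.17 against 0.964 in heart. In lung it was 0.0351 against 0.0288, and in skeletal muscle 1.20 against 1.25. The Gapdh ratio was 1.60 against 0.873 in brain and 0.136 against 0.443 in heart. In lung it was 0.821 against 0.833, and in skeletal muscle 0.00899 against 0.0261. The lowest of these ratios mean that the 5' control read brighter than the 3' control. Low Actb ratios were found on all lung arrays (0.0635 with sleep fragmentation) and low Gapdh ratios on all muscle arrays (0.264 with sleep fragmentation). In brain only the hypoxia array had a low Actb ratio. Whether such ratios measure RNA quality on these arrays is not known here, and the part of RNA quality was not tested.

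Bnip3 was at 11.61 in brain with hypoxia against 10.80 in the control brain, at 11.97 against 11.50 in heart, at 10.25 against 10.10 in lung and at 12.61 against 12.23 in skeletal muscle. It was higher with hypoxia in all 4 tissues, and 12.4% of all tested probe sets kept 1 sign in 4 of 4 tissues. The average difference was 0.45 ± 0.20, with a 95% interval of 0.01 to 0.90 and an unadjusted p of 0.047 (adjusted p = 0.906, limma). Sleep fragmentation minus control gave 0.29 ± 0.20 for Bnip3 in the same fit, against the same control arrays.

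Ndrg1 was at 12.10 in brain with hypoxia against 11.41 in the control brain, at 10.72 against 10.83 in heart, at 10.82 against 10.47 in lung and at 10.91 against 10.34 in skeletal muscle. On this probe set it was higher with hypoxia in every tissue but heart. The average difference was 0.37 ± 0.15 with an unadjusted p of 0.036 (adjusted p = 0.906, limma). The second Ndrg1 probe set gave 0.17 ± 0.15. It differed by 0.05 in brain, against 0.69 on the first, and the signs were opposite in heart (0.36 against -0.12) and in lung (-0.11 against 0.35). Skeletal muscle alone gave similar values on both, 0.39 on the second and 0.57 on the first.

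Hif1a, the other of the 2 among 7 members with 1 sign throughout, was lower with hypoxia in all 4 tissues on its first probe set, by small amounts (-0.07 in lung to -0.37 in skeletal muscle). The average was -0.20 ± 0.15, and on the second probe set it was -0.03 ± 0.14, with lung and muscle slightly above control. Epas1 differed by 0.63 in heart and by -0.69 in lung, and by 0.01 ± 0.20 on average. Vegfa differed by 0.64 in brain, 0.22 in heart, 0.09 in lung and -0.19 in skeletal muscle. Slc2a1 was at 8.21 in heart with hypoxia against 7.28 in the control heart, a difference of 0.93, and differed by 0.67 in lung, -0.48 in brain and -0.20 in muscle. The heart difference is one between low intensities, 170 with hypoxia against 57.6 in the control. The control heart and the muscle arrays (74.5 to 78.8) lay under 97.7, the value used as floor for adipose tissue. Pfkfb3 differed by 0.52 in brain and by -0.74 in lung. The 95% interval of the average lay within 2-fold for all 7 tested members.

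Within a tissue there is 1 array per condition and no test. None of the 7 members that passed the filter reached 2-fold in brain, heart, lung or skeletal muscle, against 6.09%, 5.82%, 2.8% and 6.61% of all tested probe sets. Below the filter, Adm differed by -0.98 in brain, and Vhl by 1.75 in lung and by -1.12 in skeletal muscle. Their intensities on the 12 panel arrays were 35.7 to 328 for Adm and 50.9 to 976 for Vhl. Adm lay below the array median on every panel array. Vhl lay slightly above it in the hypoxia lung (394 against 381), the control muscle (383 against 349) and the sleep fragmentation heart (422 against 404). On the other panel arrays Vhl lay below the median, and its 976 came from the brain hypoxia array, with a median of 1480.

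**Figure D3:**
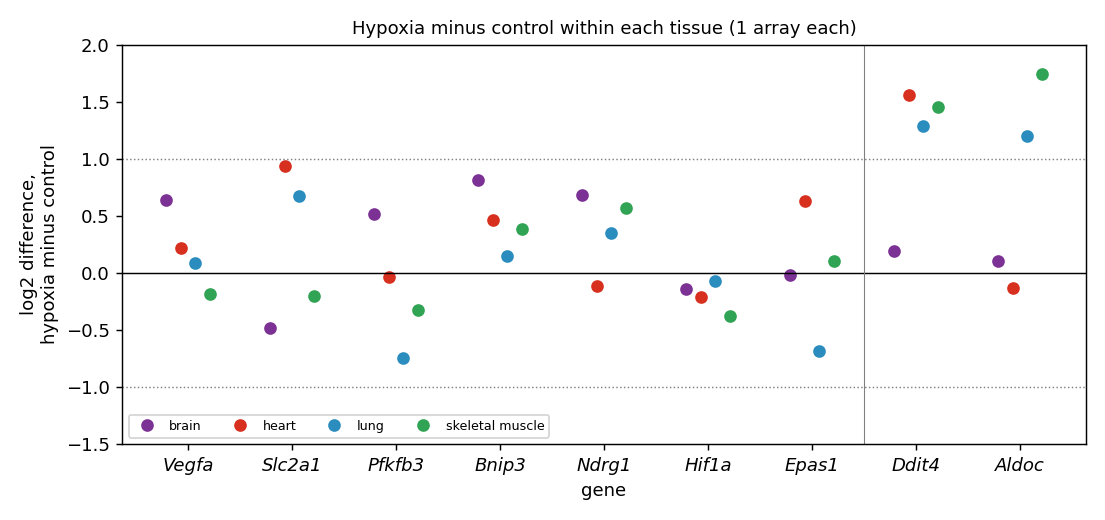
Log2 difference, hypoxia minus control (vertical axis), of the 7 tested members and of Ddit4 and Aldoc in each of the 4 tissues, 1 array per condition. Dotted lines mark 2-fold. All member points lie within 2-fold, and Bnip3 is above 0 in each tissue, while Ddit4 lies above 2-fold in heart, lung and skeletal muscle.

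The other pathway genes gave 0 of 47 past the test under hypoxia in the limma fit and 3 at an unadjusted p under 0.05, with a median of 0.01, against 0.00 over all tested probe sets. Ddit4, an inhibitor of mTORC1 signalling induced by hypoxia and by glucocorticoids, had the smallest p. It was at 10.83 in brain with hypoxia against 10.63 in the control brain, at 11.37 against 9.81 in heart, at 10.95 against 9.67 in lung and at 8.71 against 7.26 in skeletal muscle. It was higher with hypoxia in each tissue, by 1.12 ± 0.38 on average (adjusted p = 0.906, limma). Ddit4 was also higher by 1.34 ± 0.38 with sleep fragmentation, against the same control arrays (adjusted p = 0.967, limma). Aldoc, the brain form of aldolase, differed by 0.73 ± 0.29 on average, with 1.74 in skeletal muscle and 1.20 in lung, and Bhlhe40 by 0.44 ± 0.18.

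Within the single tissues, the outermost other pathway genes differed from one tissue to the next. In brain they were Kdr (0.70), the main VEGF receptor, and Ramp1 (0.68) on the high side, and Hk1 (-0.99) and Hmox1 (-0.88), an enzyme that degrades heme, on the low side. In heart they were Ddit4 (1.56), Cp (1.19), the plasma copper carrier ceruloplasmin, Slc2a3 (-0.80), the neuronal glucose transporter, and Aldoa (-0.65). In lung they were Ddit4 (1.29), Aldoc (1.20), Calcrl (-0.83), the adrenomedullin receptor, and Cited2 (-0.66), a competitor of HIF for its coactivators. The lung hypoxia array also carried more muscle transcripts: skeletal muscle markers summed to 18928 with hypoxia, against 3850 in the control lung, and 8 of 9 tested markers were more than 2-fold higher (median 1.83). Their part in the lung differences of the members and of these genes was not tested. In brain the same markers had a median difference of -0.98 after normalization. In skeletal muscle the outermost other pathway genes were Aldoc (1.74), Ddit4 (1.45), Crebbp (-1.68), one of the HIF coactivators, and Slc2a3 (-1.31).

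Sleep fragmentation minus control gave no called member in the limma fit, against 0% of all tested probe sets, and 0 at an unadjusted p under 0.05, against 4.49%. The 7 tested differences ran from -0.21 ± 0.19 for Vegfa to 0.29 ± 0.20 for Bnip3. All 7 intervals lay within 2-fold. Among the other pathway genes Cited2 (-0.49 ± 0.20), P4ha2 (0.37 ± 0.16) and Cp (0.64 ± 0.28) had an unadjusted p under 0.05 beside Ddit4, and none passed the test.

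Many members differed between the tissues. Each tissue was set against the mean of the other 3 with 3 arrays against 9, and the differences below are limma values from the fit with tissue and condition. Of the 7 tested members, 5 were called in brain, 2 in heart, 4 in lung and 6 in skeletal muscle, against 49.5%, 38.7%, 62% and 52.5% of all tested probe sets, so large tissue differences were the rule on these arrays.

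**Figure D4:**
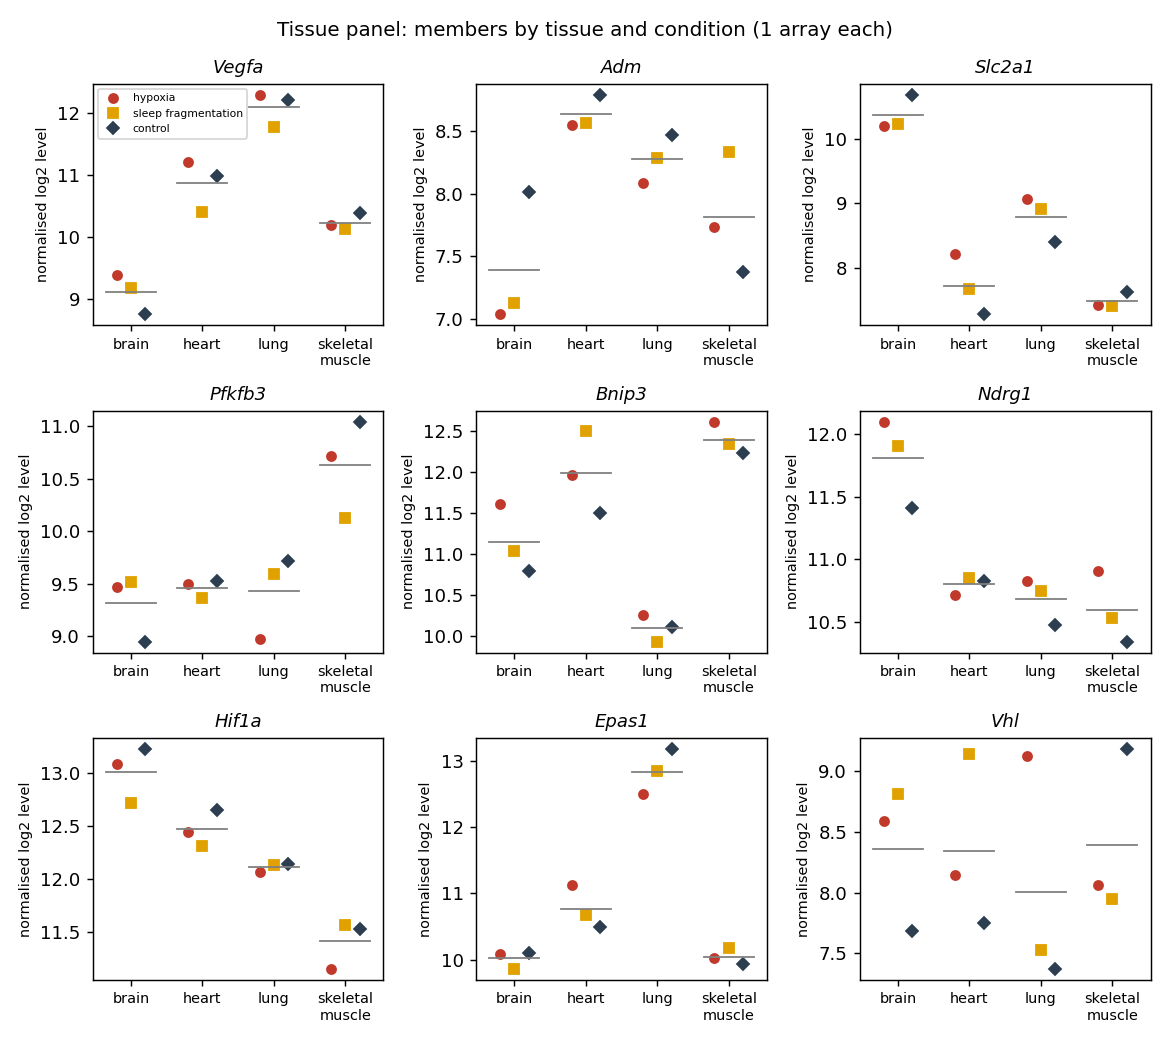
Normalised log2 level (vertical axes) of the 9 genes in brain, heart, lung and skeletal muscle, with 1 array each under hypoxia, sleep fragmentation and control. Grey bars are tissue means. Epas1 and Vegfa are highest in lung and Slc2a1, Ndrg1 and Hif1a in brain, and for Vhl all tissues overlap.

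Hif1a and Epas1 had different tissue orders. Hif1a had its highest mean level in brain, at 13.01 ± 0.26 (SD, n = 3 arrays here and for the tissue means below), followed by heart at 12.47 ± 0.17, lung at 12.11 ± 0.04 and skeletal muscle at 11.41 ± 0.23. No neighbours in that order overlapped. The brain difference was 1.01 ± 0.14 (adjusted p = 0.000185, limma) and the skeletal muscle difference -1.12 ± 0.14 (adjusted p = 0.000154, limma). The second Hif1a probe set had the same order of tissues.

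Epas1, whose protein is known from endothelial and lung epithelial cells, averaged 12.84 ± 0.34 in lung, 10.76 ± 0.33 in heart, 10.04 ± 0.13 in skeletal muscle and 10.02 ± 0.14 in brain. The lowest lung array, at 12.49, was above the highest heart array, at 11.12, and skeletal muscle and brain did not differ beyond their spread. The lung difference was 2.56 ± 0.19 (adjusted p = 2.08e-06, limma), the largest of the 7 members in any tissue. The 8 measured endothelial markers summed to 27468 to 32691 on the lung arrays, against 11194 to 13772 in heart and 4318 to 5706 in skeletal muscle. In brain they summed to 3569 on the control array, 2998 on the fragmentation array and 11247 on the hypoxia array. These sums are not normalized, and the brain hypoxia array was brighter than all other panel arrays. The part of endothelial cell content in the lung level of Epas1 was not tested.

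Vegfa averaged 12.09 ± 0.28 in lung, 10.87 ± 0.42 in heart, 10.24 ± 0.13 in skeletal muscle and 9.11 ± 0.33 in brain, with no overlap between neighbours. The lung difference was 2.02 ± 0.18 and the brain difference -1.95 ± 0.18. Of the receptors of VEGF and adrenomedullin, 5 of 7 tested rose in lung and 0 fell, where 62% of all tested probe sets were called, with a median of 1.04 against -0.10 over all probe sets. Those that rose were Ramp2 (2.96 ± 0.13) and Calcrl (2.57 ± 0.23), which form an adrenomedullin receptor, and Nrp1 (1.98 ± 0.15), Kdr (1.04 ± 0.21) and Flt1 (0.75 ± 0.14), which bind VEGF. In brain 2 of 7 rose (Ramp1 and Ramp3) and 5 fell (Nrp1, Ramp2, Kdr, Flt1 and Calcrl), against 49.5% of all tested probe sets called.

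The metabolic targets had other orders. Slc2a1, the transporter of the blood-brain barrier, averaged 10.38 ± 0.27 in brain, 8.79 ± 0.35 in lung, 7.72 ± 0.47 in heart and 7.49 ± 0.12 in skeletal muscle, and heart and muscle overlapped. Its brain difference was 2.37 ± 0.21. Pfkfb3 averaged 10.63 ± 0.46 in skeletal muscle, against 9.31 to 9.46 in the others, which overlapped, and its muscle difference was 1.23 ± 0.23 (adjusted p = 0.00143, limma). Bnip3 averaged 12.40 ± 0.20 in skeletal muscle and 11.99 ± 0.50 in heart, which overlapped, 11.15 ± 0.42 in brain, where the highest array reached 11.61 and overlapped heart, and 10.09 ± 0.16 in lung. Its lung difference was -1.75 ± 0.19. Ndrg1 averaged 11.81 ± 0.35 in brain and 10.59 to 10.80 in the others, which overlapped, and its brain difference was 1.11 ± 0.15 on the first probe set and 1.297 ± 0.143 on the second.

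Adm and Vhl, below the filter of the panel fit, are given without a test. Adm averaged 8.63 ± 0.14 in heart, 8.28 ± 0.19 in lung, 7.81 ± 0.48 in skeletal muscle and 7.39 ± 0.54 in brain, with overlap between all neighbours except heart and lung. Vhl averaged 8.01 to 8.39, with overlap between all tissues.

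Likeness over the 12 panel arrays was measured for 3 members by Pearson's r. Vegfa was most like Klf4 (r = 0.978), Postn (0.977) and Pqlc3 (0.974). Hif1a was most like Pkp4 (0.961), Arhgap21 (0.959) and Gpalpp1 (0.952), and Epas1 was most like Ifi47 (0.991), Tapbp (0.986) and Rab3d (0.985). These values describe mainly the shared tissue differences, since 3 arrays of a tissue are not independent of each other in this respect.

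Of the other 47 tested pathway genes, 31 were called in brain, 16 in heart, 28 in lung and 25 in skeletal muscle, against 49.5%, 38.7%, 62% and 52.5% of all tested probe sets, and their shares were 66%, 34%, 59.6% and 53.2%, a difference from the background that was not tested. In brain 11 rose and 20 fell, with Aldoc (4.03 ± 0.27), Pgam1 (2.47 ± 0.19) and Pfkp (2.28 ± 0.17), glycolytic enzymes, at one end and Hk2 (-3.38 ± 0.26) at the other. In heart 11 rose and 5 fell, with Hk2 (2.13 ± 0.26), Egln1 (1.77 ± 0.12) and Pdk1 (1.42 ± 0.15), the kinase that restrains pyruvate oxidation, among those that rose. In lung 15 rose and 13 fell, with Cp (3.31 ± 0.27), Ier3 (2.33 ± 0.19) and Cxcr4 (1.93 ± 0.20) higher and Tpi1 (-1.80 ± 0.13), Egln1 (-1.44 ± 0.12) and Pgk1 (-1.37 ± 0.13) lower. In skeletal muscle 10 rose and 15 fell, with Hk2 (2.47 ± 0.26), Pgk1 (1.18 ± 0.13) and Bhlhe40 (1.14 ± 0.17) higher and Pgam1 (-2.12 ± 0.19) and Pfkp (-2.05 ± 0.17) lower.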

How the data were processed

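Each array gives 1 intensity per probe set, deposited by the authors on a linear scale. How probes were summarised is not stated in the labels or headers. The trimmed mean was 792 to 799 on 19 arrays and 2670 on the brain hypoxia array. Intensity 97.7 (percentile 20 of all positive values) served as floor on the adipose arrays, whose deposited scaling was kept. On the panel arrays, it was added to each value before log2 and quantile normalization. Each fit kept the 7453 probe sets above the 40th percentile of mean level (panel: of the highest tissue mean), holding 11 of the 12 member probe sets for adipose tissue and 9 for the panel. Tests used limma 3.58.1 in R 4.3.3 (lmFit, eBayes, two-sided), with Benjamini-Hochberg adjusted p under 0.05 over all tested probe sets. Residual degrees of freedom numbered 4 in the adipose fit (means of 4 groups) and 6 in the panel fit (tissue and condition). Where a gene had several probe sets, the brightest over the 20 arrays stood for it. Symbols were updated through RefSeq (GRCm38.p6). Of each list the genes past the threshold with the smallest p (up to 6) could be named, otherwise the 2 with the smallest p, and within a tissue the 2 highest and 2 lowest. The members and lists were chosen with earlier results of these data known. The scripts were tested on simulated data. Alternatives changed the offset, normalization, filter, variance model, blocks and arrays.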

Additional observations from a re-analysis of the deposited data

Results flagged for a closer look

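In the tissue panel, the Vhl probe set differed by more than 2-fold in opposite directions in a pair of tissues. Hypoxia minus control was 1.75 on the log2 scale in lung and -1.12 in skeletal muscle. The intensities were 394 in the hypoxia lung against 50.9 in the control lung, and 152 in the hypoxia muscle against 383 in the control muscle. Each value rests on 1 array per condition, the difference between the tissues was not tested, and the probe set lay below the filter on low values. No group of arrays was large enough to look for a single array far from the others.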

How the results depend on the processing

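Each fit was repeated under the alternatives, and of 1675 recomputed member values 1562 kept their direction and side of the threshold or moved by less than the spread, 65 turned sign, 13 lost and 6 gained the threshold, and 29 untested values moved. The causes were not tested. No member passed a hypoxia test under any alternative run. Probe sets called numbered 0 in each adipose hypoxia comparison, and without the filter 2 within Con, 4 within Glucose, 3 for the difference between them and 4 on average. Glucose minus Con called 565, against 0 within the s2 arrays, 142 within the s4 arrays (the titles carry s2 or s4, a code whose meaning is not given) and 240 to 459 without single arrays. As a replicate block, the array letter left 466, and Vhl (adjusted p = 0.039, limma) past the threshold and Hif1a (0.101) short of it. The Vhl test is not counted as a call under any setting, because the gene entered the fit through the Glucose arrays. Deviations of same-letter arrays correlated at 0.41 within Glucose, where the letters coincide with s4 and s2. They correlated at 0.18 within Con and at -0.14 to -0.046 between Glucose and Con, so the letters were not taken to pair the samples. The brown adipocyte sums in Con did go with the letter, at 85383 and 65493 for letter a against 3832 and 10807 for letter b. Vhl differed by 1.37 (adjusted p = 0.118) with the offset at percentile 30, against 2.23, and had an adjusted p of 0.150 within s2 and 0.107 within s4 (limma), and 0.004 to 0.110 without single arrays. Ndrg1 in lung minus the mean of the other tissues (adjusted p = 0.040, limma) was at 0.064, 0.050 and 0.062 with scaling, no filter and without the brain hypoxia array, and Vegfa in skeletal muscle minus the mean of the other tissues (0.050) was at 0.034 to 0.043 under 4 settings. Counts past 2-fold within a tissue were 733 in heart (434 with the filter), 372 in lung (209) and 1015 in skeletal muscle (493) without the filter, 240, 130 and 266 with the 60th percentile, and 343 in lung with values set to the offset. Hypoxia minus control within brain moved for Ndrg1 from 0.69 to 0.49 and for Hif1a from -0.14 to -0.36 with scaling to the same trimmed mean. For Adm it moved from -0.98 to -1.40 with the offset at percentile 10. For hypoxia within Con, leaving out single arrays gave Vegfa -0.44 to 1.01, Slc2a1 -1.56 to 1.25, Bnip3 -0.17 to 0.24, Ndrg1 -0.52 to 0.61 and Hif1a -0.31 to 0.24. For hypoxia within Glucose, leaving out single arrays gave Vegfa -0.77 to 0.26, Adm -0.88 to 0.99, Pfkfb3 -0.28 to 0.026, Ndrg1 -0.66 to 0.12, Hif1a -0.033 to 0.32 and Epas1 -0.059 to 0.48. For the hypoxia effect in Glucose minus that in Con, leaving out single arrays gave Vegfa -1.27 to 0.18, Bnip3 -0.41 to 0.0033, Ndrg1 -0.88 to 0.25, Hif1a -0.097 to 0.45 and Epas1 -0.45 to 0.092. For the average hypoxia effect, leaving out single arrays gave Vegfa -0.35 to 0.38, Slc2a1 -0.13 to 1.27, Bnip3 -0.17 to 0.034, Ndrg1 -0.40 to 0.17 and Hif1a -0.084 to 0.19. For Glucose minus Con, leaving out single arrays gave Slc2a1 -1.04 to 0.37, Pfkfb3 -0.022 to 0.18 and Bnip3 -0.040 to 0.16. The sign also turned, for hypoxia within Con, for Slc2a1 0.28 (offset at percentile 30) and Hif1a 0.0081 (quantile normalization). The sign also turned, for hypoxia within Glucose, for Adm -0.15 (offset at percentile 30). The sign also turned, for the average hypoxia effect, for Vegfa -0.41 (within s2 arrays), Slc2a1 -0.29 (within s2 arrays), Bnip3 0.082 (within s4 arrays), Ndrg1 0.48 (within s2 arrays), Hif1a -0.12 (within s4 arrays) and Vhl 0.11 (within s4 arrays). The sign also turned, for Glucose minus Con, for Slc2a1 0.71 (within s2 arrays), Pfkfb3 -0.076 (within s2 arrays), Ndrg1 -0.056 (within s2 arrays) and Epas1 -0.032 (within s2 arrays). The sign also turned, for panel hypoxia minus control, for Slc2a1 -0.0034 (without heart), Pfkfb3 0.052 (without lung), Epas1 -0.017 (without the brain hypoxia array), Epas1 -0.20 (without heart) and Epas1 -0.024 (without muscle). The sign also turned, for panel sleep fragmentation minus control, for Slc2a1 -0.049 (without heart), Slc2a1 -0.094 (without lung), Pfkfb3 0.095 (without muscle), Epas1 0.00030 (scaling to the same trimmed mean), Epas1 0.031 (without brain) and Epas1 0.063 (without lung). The number of arrays limits the precision: the standard errors of the members' adipose hypoxia differences within Con ran from 0.33 to 0.87.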
